A study of Mus musculus with 20 samples.

Results

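The genes described here are those of the voltage-gated and inward rectifier potassium channels, chosen by symbol as the families Kcna, Kcnb, Kcnc, Kcnd, Kcnf, Kcng, Kcnh, Kcns, Kcnv and Kcnj with at least 1 UMI (a unique molecular identifier, which counts 1 RNA molecule) in the series. All 50 such genes of the 32285 listed had a UMI. They were followed in hippocampal nuclei of 20 male mice aged 4.5 to 5.5 months, profiled by single nuclei RNA-sequencing with 1 library per mouse. APP/PS1 mice carry APP with the Swedish mutation and PS1 lacking exon 9, a model of familial Alzheimer's disease, and the WT mice were their littermates. By label, 6 mice were WT_Wake and 3 APP/PS1_Wake, 3 were WT_Isofluran and 4 APP/PS1_Isofluran (inhaled isoflurane, from 5% down to 1.5%, for 3 h), and 2 were WT_Ketamine and 2 APP/PS1_Ketamine (150 mg/kg ketamine with 12 mg/kg xylazine, for 3 h). The tissue was taken directly at the end of the anesthesia.

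Voltage-gated potassium channels open on depolarization, repolarize the action potential and set how fast a neuron can fire. Kcna, Kcnb, Kcnc and Kcnd genes encode the pore-forming subunits of the Kv1, Kv2, Kv3 and Kv4 channels, and Kcnf, Kcng, Kcns and Kcnv encode electrically silent subunits that form no channel alone and modify Kv2. Kcnh genes encode the EAG, ERG and ELK channels. Kcnj genes encode inward rectifiers, among them the G protein-gated GIRK channels of neurons, the KATP pore subunits that sense cell metabolism, and the glial channel Kir4.1 that takes up extracellular potassium.

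Nuclei were clustered again without these 50 genes, and clusters were named from marker genes, so that a class is called "like" its cell type. The libraries held 4743 to 10877 nuclei and 9243992 to 25394891 UMIs, and each pair of libraries shared 5 to 35 barcodes, at most 0.407% of the smaller library. Of 160777 nuclei, 6.74% were marked as doublets and 75.7% lay in a named class. Rules set after the clusters were seen left 10 clusters unnamed. The largest, closest to CA2, held 1.21% to 2.69% of each group's nuclei, and one closest to fibroblasts held 5.20% of WT_Ketamine and at most 0.0121% of any other group. Mice 1 to 4 stood apart by a mitochondrial share of 0.939% to 1.78%, against at most 0.336% in the others, so the fits gave them a term of their own. Prnp, whose cassette drives such transgenes, was at 163 to 503 CPM (the usual depth-scaled count) in CA1-like nuclei of 6 mice labelled APP/PS1, but at 61.9 to 106 CPM in the APP/PS1-labelled mice 11, 17 and 20. Its level was 183 CPM in mouse 14, labelled WT, and at 38.7 to 140 CPM in the other 10 mice labelled WT. Genotypes are therefore given as labelled. All ketamine mice carried the numbers 25 to 28, so that ketamine and this run of numbers cannot be told apart, with mouse 29 (WT_Wake) as the only awake mouse next to them.

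Across 16 named classes, 31 of the 50 genes reached a mean of 20 CPM in at least 1 class, and 19 of these 31 were highest in a neuronal class. Here a level is a gene's UMIs in CPM, as a share of all UMIs of a class in 1 mouse, averaged over mice with at least 10 nuclei. The levels were not divided by gene length, so each gene is compared with itself across classes and not with other genes. Differences between classes are descriptions with no test. Of the 19 genes under 20 CPM in every class, Kcnj2 of the Kir2 family came closest, at 19.9 ± 19.6 CPM (SD, n = 19) in microglia-like nuclei from 29 UMIs. Kcnf1, Kcns1, Kcns2, Kcnv1 and Kcnv2 of the silent subunits also belong to these 19.

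**Figure D1:**
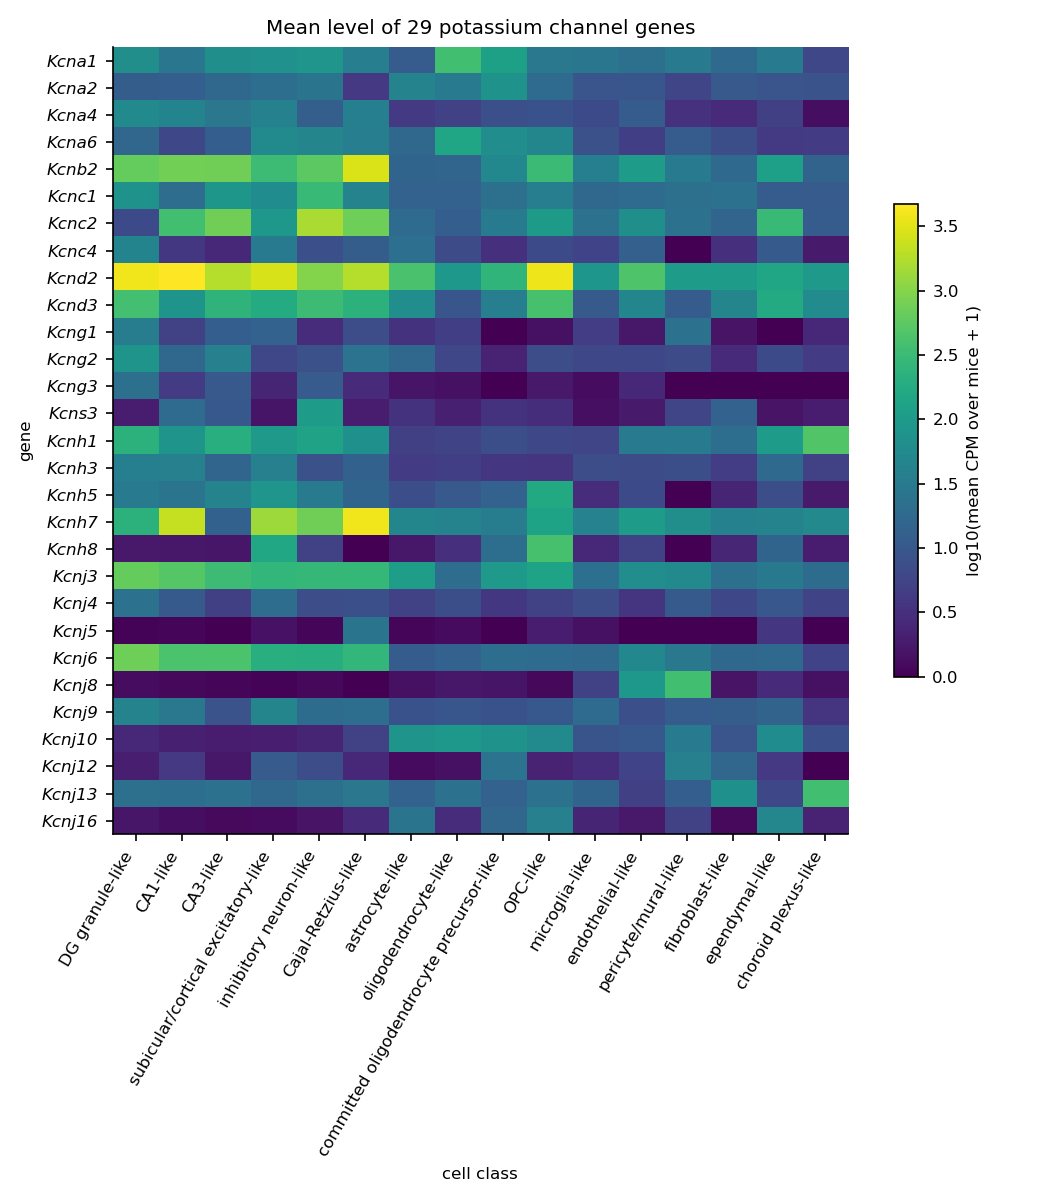
Mean level of 29 of the 31 potassium channel genes that reached 20 CPM in some class, in 16 named classes. Colour is log10 of the mean CPM over mice plus 1. Kcnd2 and Kcnb2 are bright across the neuronal columns, Kcnh7 is dark in the CA3-like column, and Kcna1, Kcnj10, Kcnj8 and Kcnj13 are brightest in columns that are not neuronal.

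Among the Kv1 genes, Kcna1 and Kcna6 were highest in oligodendrocyte-like nuclei and Kcna4 in granule-like neurons of the dentate gyrus (DG). Kcna1, the Kv1.1 subunit known from the axon beside the node of Ranvier, was at 358 ± 114 CPM (SD, n = 20) in oligodendrocyte-like nuclei and at 121 ± 88.2 CPM (n = 20) in committed precursors. In all 20 mice the oligodendrocyte-like value was the higher. Its level in inhibitory neuron-like nuclei was 80.6 ± 27.4 CPM. Kcna6, encoding Kv1.6, had 144 ± 40.7 CPM (n = 20) in oligodendrocyte-like nuclei against 5.24 ± 2.74 CPM in CA1-like ones. Kcna2, encoding Kv1.2, was highest in committed oligodendrocyte precursor-like nuclei, at 72.5 ± 61.7 CPM, where the SD was nearly as large as the mean. Kcna4, whose Kv1.4 channel inactivates fast, was at 54.3 ± 14.8 CPM in DG granule-like, 43.5 ± 12.2 CPM in CA1-like and 27.9 ± 12 CPM in CA3-like nuclei, and DG exceeded CA1 in 15 of 20 mice. Kcna3, encoding Kv1.3, stayed at or below a mean of 1.53 CPM in every class.

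Kcnb2 was highest in Cajal-Retzius-like nuclei, and Kcnc2 separated 4 neuronal classes from one another. Kcnb2, encoding Kv2.2, was at 2918 ± 829.3 CPM (SD, n = 19) in Cajal-Retzius-like nuclei, against 769.6 ± 100.2 CPM in CA1-like and 643 ± 109 CPM in DG granule-like nuclei. Kv3 channels close fast and serve high-frequency firing. Kcnc2, encoding Kv3.2, was at 1576 ± 299 CPM (n = 20) in inhibitory neuron-like nuclei, 754 ± 120.5 CPM in CA3-like, 356 ± 70.1 CPM in CA1-like and 5.77 ± 3.67 CPM in DG granule-like nuclei. The ranges over mice did not overlap between these 4 classes, which run from 949 to 2059, from 514 to 928, from 225 to 506 and from 1.96 to 17.7 CPM. Kcnc4 (Kv3.4) was instead higher in DG than in CA1, with 43.9 ± 12.2 CPM in DG granule-like and 2.88 ± 1.6 CPM in CA1-like nuclei.

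Among the inhibitory neurons, Kcnc1 and Kcnc2 were highest in Pvalb-like nuclei, the fast-spiking type. Kcnc1, encoding Kv3.1, was at 519 ± 168 CPM (SD, n = 20) there and at 159.8 ± 74.1 CPM (n = 19) in Sst-like nuclei. Kcnc2 ran from Pvalb-like nuclei (3299.8 ± 637 CPM) over Sst-like (1778 ± 430.1 CPM) and Vip-like (1193 ± 457 CPM) to Cnr1/Cck-like (396 ± 178 CPM) and Lamp5-like nuclei (394 ± 111 CPM), the last 2 less than 1 SD apart. Kcnh7 and the silent subunit Kcns3 had another order, with the highest levels in Lamp5-like nuclei, at 1791 ± 453 and 234 ± 77.3 CPM. Kcnb2 was highest in Vip-like nuclei, at 1276 ± 329 CPM, and Kcnh1 in Cnr1/Cck-like nuclei, at 534 ± 171 CPM (n = 11). The subclasses held 230 to 1389 nuclei in all.

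**Figure D2:**
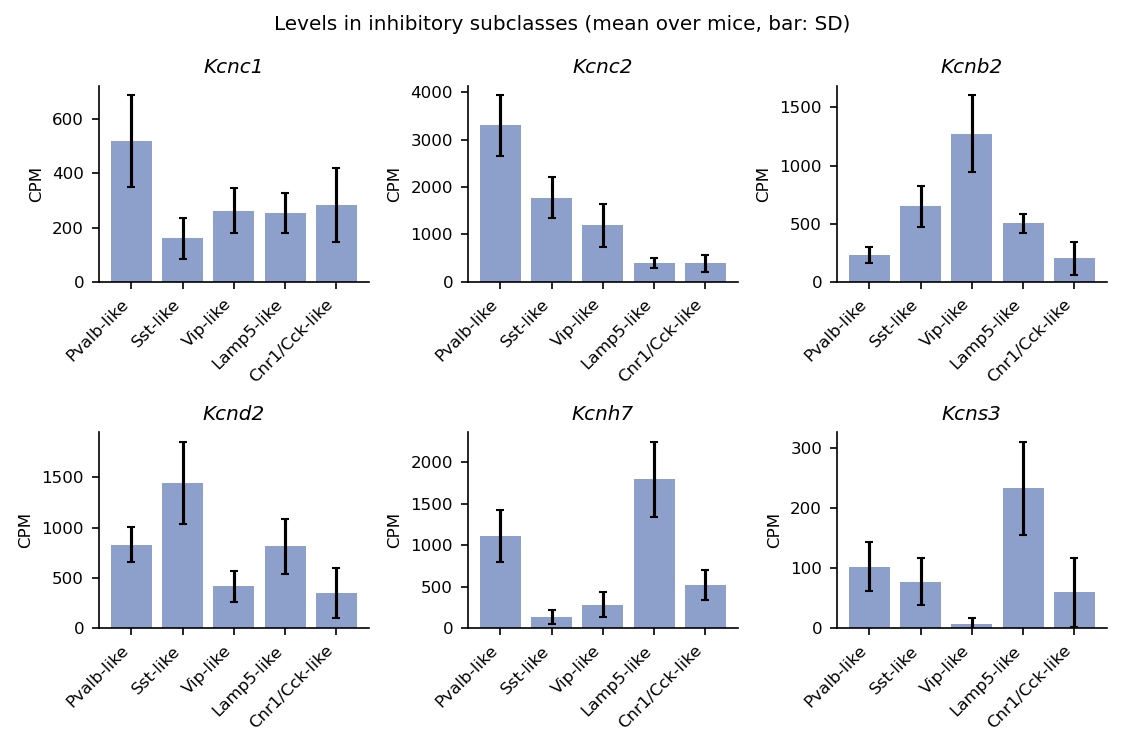
Levels of 6 potassium channel genes in 5 inhibitory subclasses, in CPM. Bars are means over mice with at least 10 nuclei (n = 11 for Cnr1/Cck-like, 19 for Sst-like, 20 for the others) and error bars are SDs. Kcnc1 and Kcnc2 peak in Pvalb-like nuclei, Kcnb2 in Vip-like, Kcnd2 in Sst-like, and Kcnh7 and Kcns3 in Lamp5-like nuclei.

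Kcnd2, encoding the Kv4.2 subunit of the dendritic A-type current, was not confined to neurons. It was at 4671 ± 712 CPM (SD, n = 20) in CA1-like, 3894 ± 484 CPM in DG granule-like, 3733 ± 604 CPM in OPC-like (oligodendrocyte precursor) and 89.9 ± 66.1 CPM in oligodendrocyte-like nuclei. CA1 exceeded DG in 20 of 20 mice, while DG and OPC differed by less than 1 SD. Kcnd3, encoding Kv4.3, was at 398 ± 100.3 CPM in OPC-like and 375 ± 55.9 CPM in DG granule-like nuclei, and OPC was the higher in 9 of 20 mice. OPC-like nuclei also had the highest means of Kcnh8 (398 ± 105 CPM) and Kcnh5 (170.2 ± 63.7 CPM), an ELK and an EAG channel. A list of 8 neuronal genes was set beside the glial levels for RNA that may come from other cells. As a share of its excitatory level, its median was 20.5% in OPC-like, 16% in oligodendrocyte-like and 13.5% in astrocyte-like nuclei. Single genes ran from 2.94% to 59%, from 3.61% to 106% and from 2.88% to 73.6%, so the list is a rough measure of such RNA. Kcnh8 in OPC-like nuclei was at 998% of its excitatory mean, and higher in 20 of 20 mice than in the next class, subicular/cortical excitatory-like nuclei (157 ± 64.5 CPM). Kcnb2 in astrocyte-like nuclei (14 ± 9.5 CPM) was only 2.24% of its excitatory mean.

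Among the silent subunits, Kcng1, Kcng2 and Kcng3 were highest in DG granule-like nuclei, at 34 ± 7.41, 77.9 ± 21.3 and 21.8 ± 7.44 CPM (SD, n = 20). Kcns3 was at 102 ± 30.3 CPM in inhibitory neuron-like nuclei, 18.3 ± 7.47 CPM in CA1-like and 0.973 ± 0.529 CPM in DG granule-like nuclei. Kcnh7, encoding the ERG3 channel, was highest in Cajal-Retzius-like nuclei (3834 ± 884 CPM, n = 19) and stood far apart between the pyramidal fields. It was at 2248 ± 367 CPM in CA1-like nuclei and at 12.6 ± 9.28 CPM in CA3-like ones, with ranges of 1462 to 2806 and 2.69 to 43.5 CPM over the 20 mice. Kcnh1, encoding the EAG1 channel, was at 227 ± 44.5 CPM in DG granule-like nuclei and had its highest mean, 474 ± 145 CPM (n = 8), in choroid plexus-like nuclei. Kcnh1 overlaps the protein-coding gene Hhat on the other strand, as Kcnh7 overlaps Gca and Kcnh3 overlaps Mcrs1.

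The inward rectifiers divided into neuronal and non-neuronal genes. Kcnj3 and Kcnj6, encoding the GIRK1 and GIRK2 subunits, were highest in DG granule-like nuclei, at 626 ± 129 and 719 ± 82.8 CPM (SD, n = 20). Kcnj9, encoding GIRK3, was at 45.4 ± 17.4 CPM in subicular/cortical excitatory-like and 42.9 ± 13 CPM in DG granule-like nuclei, which differed by less than 1 SD. Kcnj10, encoding Kir4.1, was at 88.2 ± 24.2 CPM in oligodendrocyte-like, 77.9 ± 27.75 CPM in astrocyte-like and 56.6 ± 24.9 CPM in OPC-like nuclei, and at 1.66 ± 1.79 CPM in DG granule-like ones. Kcnj16, whose Kir5.1 subunit pairs with Kir4.1, was at 49.5 ± 42 CPM (n = 15, 28 UMIs) in ependymal-like, 38.85 ± 14.9 CPM in OPC-like and 24.8 ± 10.4 CPM in astrocyte-like nuclei, but at 1.93 ± 2.45 CPM in oligodendrocyte-like ones. Kcnj8, the Kir6.1 subunit of vascular KATP channels, was at 359 ± 189 CPM (n = 13, 73 UMIs) in pericyte/mural-like nuclei and 89.4 ± 83.1 CPM (n = 18) in endothelial-like ones. Kcnj11, the Kir6.2 subunit of neuronal KATP channels, did not exceed a mean of 6.68 CPM in any class. Kcnj13, encoding Kir7.1, was at 364 ± 134 CPM (n = 8) in choroid plexus-like nuclei. It overlaps the protein-coding gene Gigyf2 on the other strand, and reads of such pairs cannot be told apart where strand was not used in counting. Kcnj5, encoding GIRK4, was at 25.2 ± 30.7 CPM (n = 19, 23 UMIs) in Cajal-Retzius-like nuclei, and Kcnj4 (Kir2.3) at 22.1 ± 10.3 CPM in DG granule-like nuclei. Kcnj12 (Kir2.2) rested on 5 UMIs in pericyte/mural-like nuclei, its highest class.

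Kcnj9 and Kcnj10 lie head to head on chromosome 1, 11891 bases apart and on opposite strands, with the neuronal and glial levels given above. Their promoters (RefSeq, build GRCm38.p6, 250 bases before the start and 50 from it on, written 5′ to 3′ on the gene's strand) are shown because these neighbours differ in class, with a TATA box (TATAAA) or GC boxes (GGGCGG or its reverse complement) in capitals.
Kcnj9 promoter, chr1:172329273-172329572, minus strand: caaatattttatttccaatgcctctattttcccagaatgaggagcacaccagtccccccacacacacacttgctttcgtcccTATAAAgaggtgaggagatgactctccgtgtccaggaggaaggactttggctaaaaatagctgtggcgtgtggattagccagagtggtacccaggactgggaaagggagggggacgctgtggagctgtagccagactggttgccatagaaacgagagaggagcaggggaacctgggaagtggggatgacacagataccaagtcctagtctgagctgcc
Kcnj10 promoter, chr1:172340960-172341259, plus strand: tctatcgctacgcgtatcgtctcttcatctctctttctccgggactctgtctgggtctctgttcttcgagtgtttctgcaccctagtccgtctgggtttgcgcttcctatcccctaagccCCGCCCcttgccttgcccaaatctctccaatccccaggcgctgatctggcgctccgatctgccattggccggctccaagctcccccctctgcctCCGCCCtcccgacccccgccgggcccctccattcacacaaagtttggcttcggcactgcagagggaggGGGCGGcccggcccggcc

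The Kcnj9 promoter held 1 TATA box and no GC box, with 52.3% G and C. The Kcnj10 promoter held 3 GC boxes and no TATA box, with 63.7% G and C. Of the 50 genes, 37 had a promoter among the 32851 in the table, and 24 of these 37 (64.9%) held a GC box on either strand, against 35.7% of all promoters. A TATA box was in 4 of the 37, which are Kcnj9, Kcnj13, Kcnj15 and Kcnj16, against 13.6% of all. The cAMP response element TGACGTCA was in 0 of the 37, against 1.79% of all promoters. TTCAGCACC, part of the site of the neuronal repressor REST, was in 1, Kcnh6, against 0.371% of all. These matches describe letters anywhere in the window and nothing of the factors. They take no account of the distance from the start, so TATAAA need not be a working TATA box.

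Treatments were compared on UMIs summed per mouse and class with edgeR's quasi-likelihood test, adjusted by Benjamini-Hochberg over all genes of the class, and called at an adjusted p under 0.05. In 9 classes tested, 40 of the 50 genes passed the filter on low counts in at least 1 class, which gave 202 pairs of a gene and a class. Kcna3, Kcna5, Kcna7, Kcna10, Kcnj1, Kcnj5, Kcnj8, Kcnj14, Kcnj15 and Kcnh6 passed it in none, and no member passed it in microglia-like nuclei. A sum over nuclei also cannot tell less RNA per nucleus from fewer nuclei of a subtype.

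Under isoflurane, 19 of the 202 pairs were called (9.41%), 13 lower and 6 higher than in wake, against 6.5% of all pairs of a gene and a class, 3.06% lower and 3.44% higher. The median log2 fold change over the 202 pairs was -0.04, against -0.001 over all genes. Of these 19, 6 were among 32 genes tested in CA1-like, 3 among 34 in DG granule-like and 3 among 28 in inhibitory neuron-like nuclei. Subicular/cortical excitatory-like nuclei had 2 among 25, astrocyte-like 2 among 22, oligodendrocyte-like 2 among 20 and CA3-like 1 among 25. The share of all genes called in each class is not given here, so these counts rank no class. Under ketamine, 12 pairs were called (5.94%), 9 lower and 3 higher, against 8.13% of all pairs, 4.12% lower and 4.02% higher. The median was -0.21, against -0.04 over all genes. Both contrasts share the 9 wake mice. Of the isoflurane pairs, 2 of the 19 called and 17 of the others passed the filter on low counts only through the group where they were higher, as did 34 uncalled ketamine pairs. Without mice 1 to 4, 6 pairs were called under isoflurane, 5 of them among the 19. The 13 pairs that lost the call include Kcna4, both Kcnj3 pairs, both Kcns3 pairs and Kcnv2 in DG granule-like nuclei, and their adjusted p-values then ran from 0.068 to 0.50. With runs of mouse numbers as a block, 0 pairs were called under ketamine by edgeR. The shares of all genes called under these settings are not given here, so the counts are no result about the channels. For the state of the mice, 16 genes induced by neuronal activity, such as Arc and Fos, are given beside these. They had 31 calls in 86 pairs under isoflurane, all of them lower, and 33 under ketamine, 29 of them lower. This list was chosen with earlier results of these data known, so it is no independent check.

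**Figure D3:**
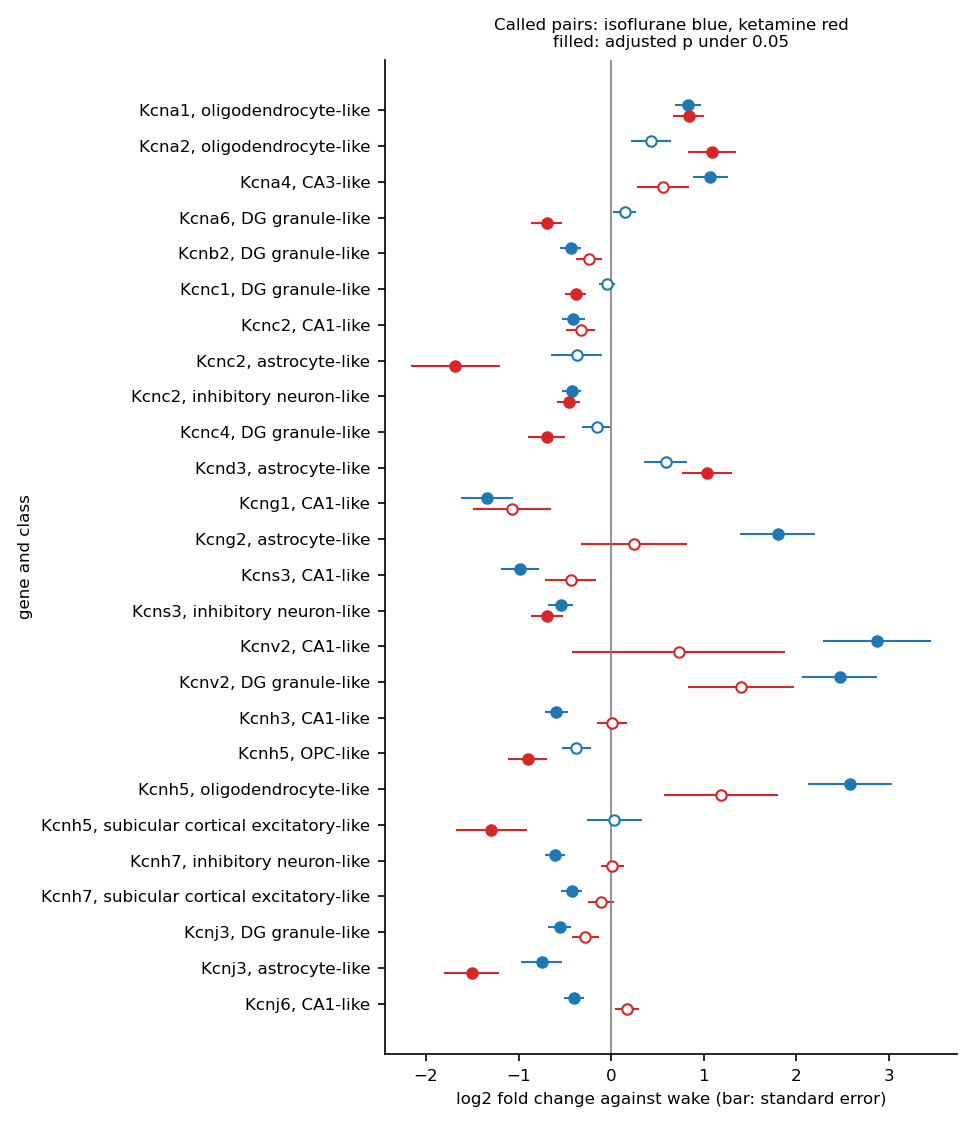
Log2 fold changes against wake of 26 pairs of a gene and a class that were called under isoflurane (blue) or ketamine (red), with standard errors; filled points have an adjusted p under 0.05. Kcnh5 in oligodendrocyte-like nuclei and Kcnv2 lie farthest to the right under isoflurane, and Kcna1 in oligodendrocyte-like nuclei is filled under both.

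The Kv1 calls were all higher under isoflurane. Kcna1 in oligodendrocyte-like nuclei was at 174, 264 and 289 CPM (lowest, median and highest of 9 wake mice), 314, 469.8 and 599 CPM under isoflurane (7 mice), and 426, 432, 464 and 511 CPM in the 4 ketamine mice. No isoflurane or ketamine mouse overlapped the wake mice. It rose on the log2 scale by 0.83 ± 0.14 (SE; adjusted p = 0.00053 by edgeR) under isoflurane and 0.84 ± 0.17 (adjusted p = 0.0082) under ketamine. Within each of the 4 runs of mouse numbers that held both states, the isoflurane difference was positive, 0.67 to 1.34 on the log2 scale. Such values within runs come from the mice that gave the call, and are a description of it. Against mouse 29 alone, the only awake mouse of their run, the ketamine mice differed by 0.77. The list of 8 neuronal genes had a median log2 fold change of -0.90 in these nuclei under ketamine and of 0.21 under isoflurane. Its summed level was 323 to 1357 CPM in wake, 457 to 1664 CPM under isoflurane and 242 to 472 CPM under ketamine, with all 8 genes detected. The call under ketamine was lost without mouse 27 and with runs of mouse numbers as a block.

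Kcna2 in oligodendrocyte-like nuclei was at 8.56, 21 and 36.7 CPM in wake and at 30, 30.8, 44.9 and 96 CPM in the ketamine mice, with mouse 25 far above the others and 2 mice in the wake range. It rose by 1.09 ± 0.26 (adjusted p = 0.020 by edgeR) under ketamine, a call lost without mouse 25, 27 or 28. Under isoflurane it stood at 0.43 ± 0.21 (adjusted p = 0.23). In DG granule-like nuclei, Kcna6 was at 13.1, 14.8 and 20.9 CPM in wake and at 8.16, 9.22, 10 and 13.65 CPM under ketamine. Of these 4, only mouse 28 overlapped the wake mice. It fell by 0.70 ± 0.17 (adjusted p = 0.012), a call lost without mouse 27. Against mouse 29 alone the difference was -0.35 for Kcna6 and 0.77 for Kcna2, and with the number runs as a block the values were -0.42 ± 0.31 and 0.70 ± 0.48 (adjusted p = 0.81 and 0.91 by edgeR).

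Kcna4 rose in CA3-like nuclei, from 11.1, 17.7 and 31 CPM in wake to 30.1, 41.7 and 53.1 CPM under isoflurane, with a log2 fold change of 1.07 ± 0.19 (adjusted p = 0.0037 by edgeR). Only the highest wake mouse overlapped the isoflurane mice. The difference was positive in each of the 4 runs, 0.28 to 1.53. Ketamine mice were at 21.1, 27.7, 28.8 and 34 CPM, a log2 fold change of 0.56 ± 0.28 (adjusted p = 0.25). DG granule markers, of which all 6 were detected in CA3-like nuclei, summed to 15 to 46.7 CPM in wake and 12.6 to 53.5 CPM under isoflurane, overlapping throughout. In DG granule-like nuclei Kcna4 itself stood at -0.07 ± 0.16 under isoflurane (adjusted p = 0.89). Whether its change differs between classes was not tested. The Kcna4 promoter is shown with its 3 GC boxes in capitals, as that of a gene higher under isoflurane.
Kcna4 promoter, chr2:107290339-107290638, plus strand: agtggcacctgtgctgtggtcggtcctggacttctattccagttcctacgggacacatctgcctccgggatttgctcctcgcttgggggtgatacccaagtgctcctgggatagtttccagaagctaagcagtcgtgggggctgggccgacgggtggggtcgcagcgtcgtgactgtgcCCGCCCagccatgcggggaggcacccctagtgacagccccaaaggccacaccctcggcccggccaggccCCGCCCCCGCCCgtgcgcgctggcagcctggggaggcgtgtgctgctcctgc

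Kcnb2 of the Kv2 genes fell in DG granule-like nuclei under isoflurane. It was at 630.5, 696 and 931 CPM in wake and 476, 504 and 781 CPM under isoflurane. All isoflurane mice but mouse 11 lay below every wake mouse. It fell by 0.44 ± 0.11 (adjusted p = 0.035), and the call was lost in 10 of the fits that left out 1 mouse. That call was also lost without mice 1 to 4, with no term for them, and with only the compared groups in the fit.

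Among the Kv3 genes, Kcnc2 fell in inhibitory neuron-like nuclei under both treatments. It was at 1592, 1894 and 2219 CPM in wake, 1129.7, 1300.4 and 1932 CPM under isoflurane, and 1063, 1428, 1546 and 1555 CPM in the ketamine mice. Under isoflurane all mice but 1, mouse 11, lay below every wake mouse, and under ketamine all 4 did. The log2 fold changes were -0.42 ± 0.10 (adjusted p = 0.018 by edgeR) and -0.46 ± 0.13 (adjusted p = 0.033). The isoflurane call was lost without mouse 2 or 3, and the ketamine call without any 1 of 10 mice, and both at a Leiden resolution of 2 (adjusted p = 0.19 and 0.47 by edgeR). Kcnc2 varies between subclasses, and Pvalb-like nuclei made up 11%, 22.3% and 29.6% of the 5 subclasses in wake (lowest, median and highest mouse), 9.66%, 16% and 21.2% under isoflurane, and 14.8%, 26.9% and 36.4% under ketamine. Within Pvalb-like nuclei the level was 3751 ± 592 CPM (SD, n = 9) in wake, 2981 ± 437 CPM (n = 7) under isoflurane and 2844 ± 352 CPM (n = 4) under ketamine. Within Sst-like nuclei it was 2050.1 ± 335 CPM, 1504 ± 228 CPM and 1602 ± 645 CPM (n = 3). Both treatments overlapped wake in both subclasses, wake running from 3120 to 4559 and isoflurane from 2505 to 3691 CPM in Pvalb-like nuclei. The part of subclass shares in the result was not tested.

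Kcnc2 also fell in CA1-like nuclei under isoflurane, from 323, 418 and 544 CPM to 194.5, 304 and 429.6 CPM, with overlap. It fell by 0.41 ± 0.13 (adjusted p = 0.047 by edgeR), a call that 19 of 31 alternatives lost, with -0.22 ± 0.13 (adjusted p = 0.50) without mice 1 to 4. In astrocyte-like nuclei Kcnc2 was at 9.4, 24.7 and 32.4 CPM in wake and at 2.1, 2.89, 9.6 and 24.2 CPM under ketamine (35 UMIs in all). It fell by 1.69 ± 0.48 (adjusted p = 0.033), a call lost without mouse 10, 26, 27 or 28. That call was also lost without mice 1 to 4, with the number runs as a block, and with nuclei assigned by their own marker UMIs. The 8 neuronal genes had a median log2 fold change of -0.73 there. Inhibitory neuron markers, all 6 detected, summed to 331 to 507 CPM there in wake and to 374 to 552 CPM under ketamine. The same markers had a median of 1278 CPM in inhibitory neuron-like nuclei, but of 11.3 CPM in CA1-like nuclei in wake. What gave their sum in astrocyte-like nuclei was not tested, so it is no clear measure of RNA from inhibitory neurons. The part of either list in the result was not tested. In DG granule-like nuclei, Kcnc1 was at 62.7, 80.3 and 84.5 CPM in wake and at 52.7, 56.4, 64 and 65 CPM under ketamine, a fall of 0.38 ± 0.11 (adjusted p = 0.027). Kcnc4 was there at 34.3, 47.2 and 69.2 CPM in wake and at 27.6, 30.2, 31.5 and 34.5 CPM under ketamine, a fall of 0.70 ± 0.20 (adjusted p = 0.027). Both overlapped wake in part, Kcnc1 in 2 ketamine mice and Kcnc4 in 1. The Kcnc1 call was lost without any 1 of 6 mice, and the Kcnc4 call without mouse 17 or any ketamine mouse. Against mouse 29 alone the difference was small for both, -0.08 for Kcnc1 and -0.15 for Kcnc4, and with the number runs as a block their values were -0.04 ± 0.19 and -0.07 ± 0.23 (adjusted p = 0.98 and 0.97 by edgeR). For Kcnc2 the difference from mouse 29 was -1.67 in astrocyte-like and -0.58 in inhibitory neuron-like nuclei.

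Kcnd3 of the Kv4 genes was called in astrocyte-like nuclei under ketamine, while Kcnd2 was called in no class. Kcnd3 was there at 17.1, 41 and 76.2 CPM in wake and at 81.4, 86.4, 103 and 126 CPM under ketamine, above every wake mouse. It rose by 1.03 ± 0.27 (adjusted p = 0.022 by edgeR), and the call was lost without mouse 17, 25, 26, 27 or 28. It was also lost with the number runs as a block, without mice 1 to 4, and with nuclei assigned by their own marker UMIs. With the nuclei marked as doublets kept, the value was 0.11 ± 0.19 (adjusted p = 0.76 by edgeR), close to 0. The rise thus depends on whether these nuclei are kept, and the cause was not tested. Against mouse 29 alone the difference was 0.66. Inhibitory neuron markers summed to 331 to 507 CPM in these nuclei in wake and to 374 to 552 CPM under ketamine. As described with Kcnc2, this sum is no clear measure of RNA from inhibitory neurons. The part of these markers in the result was not tested. Several neuronal classes had Kcnd3 values below 0 that missed the threshold. Under isoflurane these were -0.30 ± 0.09 in DG granule-like (adjusted p = 0.0509 by edgeR) and -0.56 ± 0.18 in subicular/cortical excitatory-like nuclei (adjusted p = 0.0506). They were -0.35 in CA3-like (adjusted p = 0.059) and -0.51 ± 0.18 in CA1-like nuclei (adjusted p = 0.079). Under ketamine the CA1-like value was -0.70 ± 0.23 (adjusted p = 0.053). These sat close enough to the threshold to turn on the clustering: under another Leiden seed the adjusted p-values by edgeR were 0.041 in DG granule-like and 0.045 in subicular/cortical excitatory-like nuclei under isoflurane, and 0.042 in CA1-like nuclei under ketamine. Kcnd2 stood between -0.50 and -0.01 in the 8 classes under isoflurane, with its lowest adjusted p of 0.066 in inhibitory neuron-like nuclei (-0.44 ± 0.14).

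Silent subunits moved in both directions under isoflurane. Kcns3 fell in CA1-like nuclei, from 12.8, 25.6 and 34.1 CPM in wake to 8.83, 11.7 and 16.3 CPM, with 2 wake mice among the isoflurane values. Its log2 fold change was -0.98 ± 0.21 (adjusted p = 0.0058 by edgeR), negative in 4 of 4 runs. In inhibitory neuron-like nuclei it was at 83.2, 131 and 167 CPM in wake, 66.2, 86.2 and 108 CPM under isoflurane, and 59.2, 63.7, 80.4 and 108 CPM under ketamine. The groups overlapped, with 2 isoflurane and 3 ketamine mice below every wake mouse. It fell there by 0.54 ± 0.13 (adjusted p = 0.018) and by 0.69 ± 0.17 (adjusted p = 0.021), calls lost without mouse 2, 3, 4 or 18 and without mouse 26, 27 or 28, and both at a Leiden resolution of 2 (adjusted p = 0.092 and 0.25 by edgeR). Without mice 1 to 4 the isoflurane value was -0.36 ± 0.15 (adjusted p = 0.36), and against mouse 29 alone the ketamine difference was -0.63. Within Pvalb-like nuclei Kcns3 was at 130.1 ± 29.4 CPM (SD, n = 9) in wake and 67.2 ± 30.2 CPM (n = 7) under isoflurane, with overlap. In Lamp5-like nuclei, where it was highest among the subclasses, it was at 275 ± 79.3 and 214 ± 43.3 CPM, and in Sst-like ones at 91.5 ± 45 and 73 ± 28.7 CPM, both with overlap. Cnr1/Cck-like nuclei had 77.3 ± 73.7 and 54.4 ± 36.8 CPM (n = 5 each), and Vip-like ones 6.52 ± 8.99 and 4.62 ± 7.96 CPM. Under ketamine Kcns3 was at 174 ± 80.5 CPM (n = 4) in Lamp5-like and 105 ± 32.9 CPM (n = 4) in Pvalb-like nuclei. It was at 47.9 ± 31.5 CPM (n = 3) in Sst-like nuclei, and each of these overlapped wake. Vip-like nuclei were above their wake mean, at 12.9 ± 14.9 CPM (n = 4), also with overlap, and only 1 ketamine mouse had enough Cnr1/Cck-like nuclei. Lamp5-like nuclei made up 32.2%, 35.4% and 41.9% of the 5 subclasses in wake, 29.4%, 39.6% and 46.9% under isoflurane, and 22.2%, 27.5% and 32.1% under ketamine, where every mouse lay below every wake mouse. The part of these shares in the Kcns3 result was not tested.

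Kcng1 in CA1-like nuclei was at 2.24, 5.82 and 17.1 CPM in wake and 1.13, 1.96 and 4.58 CPM under isoflurane, from 128 and 58 UMIs. The log2 fold change was -1.35 ± 0.28 (adjusted p = 0.0050 by edgeR), with overlap between the groups. Mouse 1 gave the highest wake value and mouse 4 the highest isoflurane value. The call was lost with no term for mice 1 to 4 and with nuclei assigned by their own marker UMIs. Kcng2 in astrocyte-like nuclei was at 2.42, 7.42 and 11.2 CPM in wake and at 5.18, 13.7 and 60.2 CPM under isoflurane. Mice 15, 16 and 20 were between 54.5 and 60.2 CPM, and the other 4 at or below 13.7 CPM. It rose by 1.80 ± 0.41 (adjusted p = 0.0074), a call lost without mouse 16 and with doublets kept (1.01 ± 0.31, adjusted p = 0.052). DG granule markers, all 6 detected, summed to 703 to 1040.3 CPM in these nuclei in wake and to 624 to 939.8 CPM under isoflurane. The same markers had a median of 2911 CPM in DG granule-like nuclei, but of 25.5 CPM in CA3-like nuclei in wake. What gave their sum in astrocyte-like nuclei was not tested, so it is no clear measure of RNA from DG granule cells.

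Kcnv2 rose from very few UMIs. In DG granule-like nuclei it was at 0, 1.01 and 2.92 CPM in wake (51 UMIs in 9 mice, 2 at 0) and at 2.67, 4.5 and 7.99 CPM under isoflurane (173 UMIs in 7 mice). The highest wake mouse lay just above the lowest isoflurane mouse. In CA1-like nuclei it was at 0, 0.449 and 1.07 CPM in wake (7 UMIs, 4 mice at 0) and at 0.756, 3.02 and 6.74 CPM under isoflurane (81 UMIs). In CA1-like nuclei no wake mouse reached the count of the gene filter, and the pair was tested through 3 isoflurane mice alone, so that it had to differ. The adjusted p-values were 0.0026 and 0.0042 by edgeR, with fitted log2 fold changes of 2.47 ± 0.41 and 2.88 ± 0.58 that depend on the prior count at such levels. Within all 4 runs Kcnv2 was higher under isoflurane in both classes. Without mice 11, 14, 17 and 20 the DG granule-like value was 4.21 ± 0.58 (adjusted p = 0.0015).

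Kcnh7 fell under isoflurane in inhibitory neuron-like nuclei, from 663, 860.1 and 1122 CPM in wake to 488, 551 and 677 CPM, while the ketamine mice were at 729.6, 966, 972 and 1009 CPM. Only the lowest wake mouse, mouse 1, overlapped the isoflurane mice. The log2 fold change was -0.60 ± 0.11 (adjusted p = 0.0015 by edgeR) under isoflurane and 0.01 ± 0.13 (adjusted p = 0.96) under ketamine, and the difference between the treatments was not tested. Within runs the isoflurane difference was -0.69 to -0.43. In Lamp5-like nuclei, where Kcnh7 was highest among the subclasses, it ran from 1563 to 2519 CPM in the 9 wake mice and from 1156 to 1554 CPM in the 7 isoflurane mice, without overlap. The groups overlapped in the other subclasses, where Kcnh7 was at 1125 ± 338 CPM (SD, n = 9) in wake and 901 ± 152 CPM (n = 7) under isoflurane in Pvalb-like, at 331 ± 195 and 229 ± 88.4 CPM in Vip-like, at 154.5 ± 88.6 and 118 ± 83.2 CPM in Sst-like, and at 479.8 ± 228 and 505 ± 88.8 CPM (n = 5 each) in Cnr1/Cck-like nuclei. The Lamp5-like share of the subclasses, given with Kcns3, overlapped between wake and isoflurane and was lower in every ketamine mouse than in any wake mouse. In subicular/cortical excitatory-like nuclei Kcnh7 was at 981, 1547 and 2131 CPM in wake and 759, 1067 and 1551 CPM under isoflurane, with overlap, and fell by 0.42 ± 0.12 (adjusted p = 0.025), a call lost without mouse 3, 10, 16 or 20. That call was also lost without mice 1 to 4, with no term for them, with the number runs as a block, and with nuclei assigned by their own marker UMIs. The Kcnh7 promoter, with 4 GC boxes in capitals, is shown as that of a gene lower in inhibitory neuron-like nuclei under isoflurane.
Kcnh7 promoter, chr2:63184238-63184537, minus strand: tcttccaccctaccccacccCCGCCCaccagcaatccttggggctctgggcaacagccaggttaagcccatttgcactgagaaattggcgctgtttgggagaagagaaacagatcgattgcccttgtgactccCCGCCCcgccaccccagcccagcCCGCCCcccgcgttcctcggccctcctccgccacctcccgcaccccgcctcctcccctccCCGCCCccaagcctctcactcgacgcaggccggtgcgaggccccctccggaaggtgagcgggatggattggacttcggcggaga

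Kcnh5 was called in 3 classes. In oligodendrocyte-like nuclei it was at 0, 3.03 and 6.66 CPM in wake (18 UMIs), 5.06, 22 and 30.4 CPM under isoflurane (101 UMIs), and 6.2, 7.51, 8 and 11 CPM under ketamine (20 UMIs). The log2 fold change under isoflurane was 2.58 ± 0.46 (adjusted p = 0.00081 by edgeR), and positive in 4 of 4 runs, with 2 isoflurane mice inside the wake range. No wake mouse reached the count of the gene filter here, and the pair was tested through 4 isoflurane mice alone, so that it too had to differ. With nuclei assigned to classes by a gate on their own marker UMIs in place of clusters, the value was 1.65 ± 0.40 (adjusted p = 0.020). OPC markers, all 6 detected, summed to 21 to 119 CPM in oligodendrocyte-like nuclei in wake and to 25.6 to 60.6 CPM under isoflurane, against a median of 4274 CPM in OPC-like nuclei. In OPC-like nuclei Kcnh5 was at 145, 219 and 273 CPM in wake and at 63.3, 73.1, 156 and 248 CPM under ketamine. Both APP/PS1-labelled ketamine mice lay below every wake mouse and both WT-labelled ones within the wake range. It fell by 0.90 ± 0.21 (adjusted p = 0.023), a call lost without mouse 25, 26 or 27 and with doublets kept (-0.52 ± 0.21, adjusted p = 0.19). That call was also lost without mice 1 to 4, with no term for them, with the number runs as a block, and with nuclei assigned by their own marker UMIs. Against mouse 29 alone the difference was -1.12. The 8 neuronal genes summed to 499 to 1175 CPM in these nuclei in wake and to 459 to 700.3 CPM under ketamine, and their part in the result was not tested.

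In subicular/cortical excitatory-like nuclei Kcnh5 was at 42, 78.1 and 176 CPM in wake and at 28.8, 37.25, 38.8 and 71.6 CPM under ketamine (369 and 107 UMIs). Mouse 25 lay within the wake range and the other 3 ketamine mice below it. It fell by 1.29 ± 0.38 (adjusted p = 0.0478 by edgeR), a call that 21 of 31 alternatives lost, with -0.51 ± 0.30 (adjusted p = 0.28) under the marker gate, and that turned on the clustering, with an adjusted p of 0.051 under another Leiden seed. Against mouse 29 alone the difference was -1.09. Kcnh3, encoding an ELK channel, fell in CA1-like nuclei under isoflurane, with a log2 fold change of -0.59 ± 0.13 (adjusted p = 0.0065 by edgeR). It was at 29.1, 40.3 and 64.2 CPM in wake and at 20.4, 27.2 and 44.7 CPM under isoflurane, with overlap. The call was lost without mice 1 to 4 and with no term for them.

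Of the inward rectifiers, the GIRK genes Kcnj3 and Kcnj6 were called and no other. Kcnj3 in DG granule-like nuclei was at 581, 685 and 1035 CPM in wake and at 374, 512 and 723 CPM under isoflurane. All isoflurane mice but mouse 11 lay below the lowest wake mouse. Kcnj3 fell there by 0.56 ± 0.12 (adjusted p = 0.014 by edgeR), a call lost without mouse 2. In astrocyte-like nuclei Kcnj3 was at 123, 138 and 188 CPM in wake, 44.2, 76.7 and 189 CPM under isoflurane, and 37.8, 53.9, 59.2 and 62.4 CPM in the ketamine mice, all 4 below every wake mouse. It fell by 0.75 ± 0.22 (adjusted p = 0.039) and by 1.51 ± 0.30 (adjusted p = 0.0046), isoflurane was above wake in 1 of 4 runs, and the ketamine mice differed from mouse 29 alone by -1.38. The isoflurane call was lost without any 1 of 10 mice and with doublets kept (-0.45 ± 0.15, adjusted p = 0.079 by edgeR). The 8 neuronal genes had median log2 fold changes of -0.06 and -0.73 there, and their part in the result was not tested. Kcnj3 had 25% of its excitatory level in astrocyte-like nuclei, where these 8 genes had a median of 13.5% and ran from 2.88% to 73.6%.

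Kcnj6 fell in CA1-like nuclei under isoflurane, from 366.5, 427 and 638 CPM in wake to 263, 332 and 429 CPM, with mouse 11 as the only isoflurane mouse in the wake range. It fell by 0.40 ± 0.11 (adjusted p = 0.022 by edgeR), a call lost without mouse 2 or 3, and also without mice 1 to 4 together. The ketamine mice were at 505, 513, 513.5 and 541 CPM, with a value of 0.17 ± 0.13 (adjusted p = 0.41). Kcnj9 passed the filter in 7 classes and Kcnj10 in 4, and neither was called. The value of Kcnj10 in astrocyte-like nuclei was -0.61 ± 0.20 under isoflurane (adjusted p = 0.064), and -0.06 ± 0.24 under ketamine (adjusted p = 0.90).

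**Figure D4:**
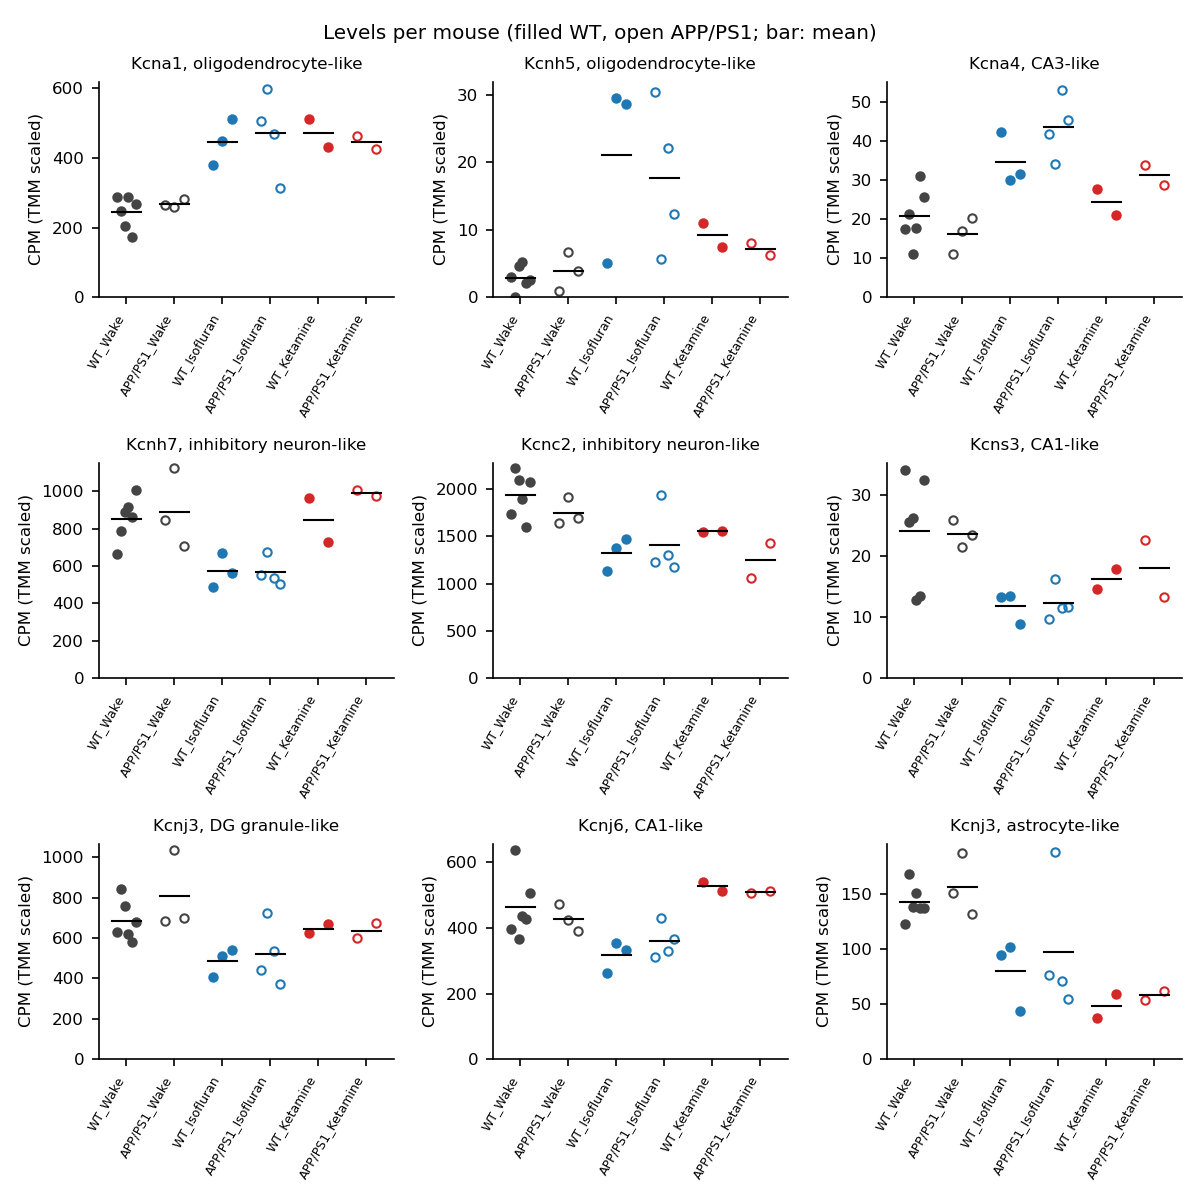
Levels per mouse of 9 pairs of a gene and a class, in TMM-scaled CPM, by labelled group. Filled points are WT, open points APP/PS1, and bars are group means. In the Kcna1 panel all isoflurane and ketamine mice lie above the wake mice, and mouse 11 of APP/PS1_Isofluran is the single high point in the Kcnc2 and both Kcnj3 panels.

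**Figure D5:**
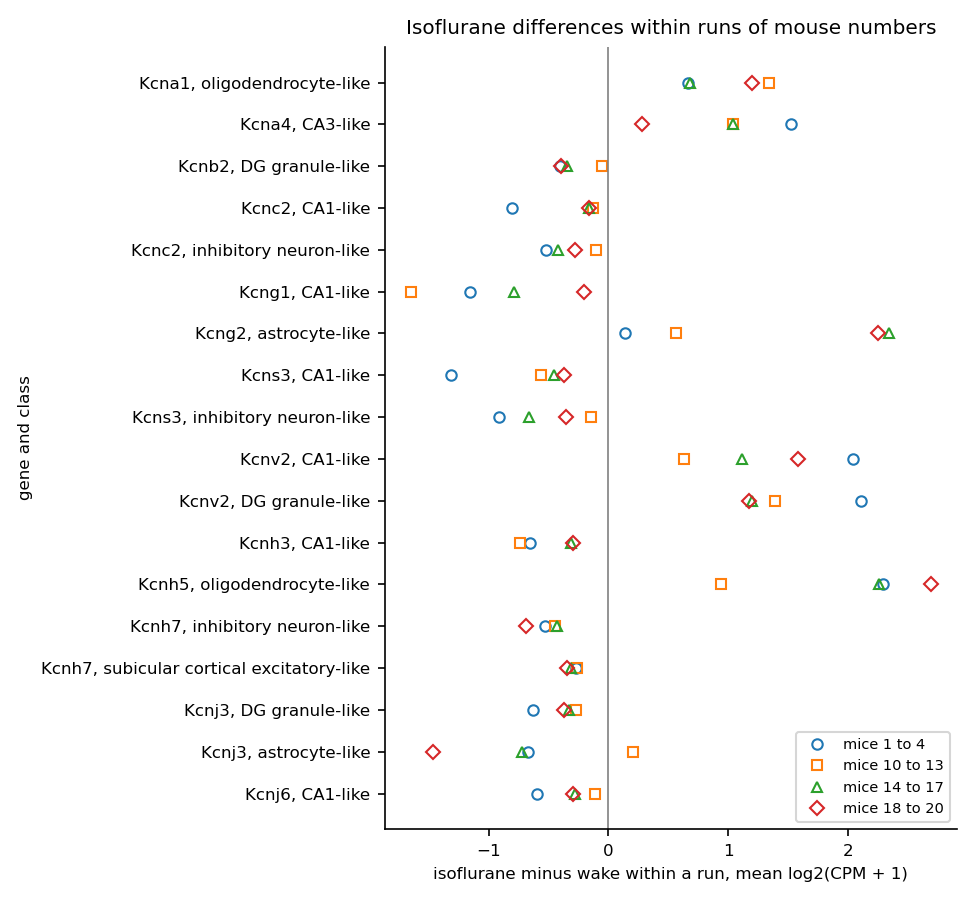
Isoflurane minus wake within each of 4 runs of mouse numbers, as differences of mean log2(CPM + 1), for 18 of the 19 pairs called under isoflurane. Each marker is 1 run of mice. The pairs were chosen for a difference between these same mice, so that runs on 1 side of 0 are no independent support. Kcnj3 in astrocyte-like nuclei has 1 run on the other side.

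Genes for auxiliary subunits and partners of these channels, 25 of 31 listed ones tested in 183 pairs, gave 19 calls under isoflurane (10.4%, against 6.5% of all pairs), 15 of them lower, and 15 under ketamine (8.20%, against 8.13%), 12 of them lower. Kcnab1, the Kv1 beta subunit, rose in oligodendrocyte-like nuclei under both treatments, by 1.33 ± 0.24 (adjusted p = 0.00092 by edgeR) and 1.08 ± 0.28 (adjusted p = 0.029) on the log2 scale. It also rose in astrocyte-like nuclei under ketamine, by 1.17 ± 0.21 (adjusted p = 0.0020 by edgeR). Kcnip3, a calcium-binding Kv4 partner, fell in 5 classes under isoflurane, by 0.52 ± 0.12 in CA1-like to 0.71 ± 0.15 in OPC-like nuclei. Rgs7bp, which anchors a regulator of GIRK signalling, fell under isoflurane in all 5 neuronal classes tested. Its falls ran from 0.33 ± 0.07 in DG granule-like to 0.79 ± 0.12 in subicular/cortical excitatory-like nuclei. Kcnip1 rose under isoflurane in OPC-like (0.92 ± 0.17, adjusted p = 0.0029) and astrocyte-like nuclei (1.19 ± 0.37, adjusted p = 0.046 by edgeR). Dlg4, encoding the scaffold PSD-95, fell in CA1-like, CA3-like and DG granule-like nuclei under ketamine, by 0.46 ± 0.10 to 0.72 ± 0.18. How the calls of these partner genes hold under alternative fits is not given here.

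Between mice labelled APP/PS1 (n = 9) and WT (n = 11), edgeR called 0 of the 202 pairs, and 10 (4.95%) had an unadjusted p under 0.05, while DESeq2 called 0. Over all genes, 0% were called and 3.79% had an unadjusted p under 0.05. The 3 pairs with the smallest p were Kcnh5 in OPC-like nuclei (-0.64 ± 0.16, adjusted p = 0.77), Kcnc2 in astrocyte-like (1.11 ± 0.35, adjusted p = 1.00) and Kcnc2 in subicular/cortical excitatory-like nuclei (0.54 ± 0.17, adjusted p = 1.00). Under the marker gate both Kcnc2 values turned, to -0.0085 ± 0.36 and -0.035 ± 0.26 (adjusted p = 1.00 and 0.99 by edgeR). For the difference of the isoflurane effect between genotypes, edgeR called 0 pairs, with 9 (4.46%) at an unadjusted p under 0.05, and DESeq2 called 0. Over all genes, 0% were called and 3.98% had an unadjusted p under 0.05. The smallest p-values were those of Kcnv2 in DG granule-like nuclei (2.62 ± 0.85, adjusted p = 0.99) and, in CA1-like nuclei, of Kcnd1, a Kv4 subunit (2.29 ± 0.78, adjusted p = 0.94), and the silent subunit Kcnv1 (-1.41 ± 0.50, adjusted p = 0.94). Without mice 11, 14, 17 and 20, whose Prnp goes against their labels, edgeR again called 0 pairs in both contrasts, and 25 under isoflurane. The share of all genes called under isoflurane without these mice is not given here.

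Summed over the 50 genes, the channels were at 6054 ± 499 CPM (SD, n = 9) in inhibitory neuron-like nuclei in wake, 5090.3 ± 372 CPM (n = 7) under isoflurane and 5617 ± 59.3 CPM (n = 4) under ketamine. The lowest wake mouse (5378 CPM) lay below the highest isoflurane mouse (5636 CPM). Genes with many UMIs weigh most in such a sum, among them Kcnc2 and Kcnh7, both called lower in these nuclei under isoflurane. Isoflurane means were also below wake in Cajal-Retzius-like (9426 ± 1149 against 11390 ± 1205 CPM) and OPC-like nuclei (5397 ± 878 against 6311 ± 621 CPM), with overlap. In oligodendrocyte-like nuclei the sum was 934 ± 193 CPM in wake and 1062 ± 161 CPM under isoflurane, less than 1 SD apart, although Kcna1 rose there.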

How the data were processed

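Single nuclei RNA-sequencing libraries of the hippocampus of 20 mice were made with a 3′ kit of 10x Genomics. Per the labels, the authors aligned reads to mm10 with Cell Ranger 5.0.0 and deposited raw UMI counts per gene and nucleus. The study's methods name CellBender for the removal of ambient RNA. Whether the deposited counts were made before or after that step, and whether strand was used, is not given in the sources used here.

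The potassium channel genes and the gene lists were chosen with earlier results of these data known. Nuclei with at least 200 genes were clustered on 30 principal components of 2000 variable genes, without the channel genes (leidenalg 0.10.2, resolution 1), after marking doublets by simulated neighbours. Clusters were named from marker genes, and 38 of 62 stayed unnamed. Counts were summed per mouse and class, with at least 50 nuclei per mouse for a test. edgeR 4.0.16 (quasi-likelihood, TMM, R 4.3.3) fitted all 6 groups with a term for mice 1 to 4, and adjusted p-values (Benjamini-Hochberg) cover all genes of a class. Values per mouse beside a test are TMM-scaled CPM, and class levels are unscaled CPM. Named pairs are those called under a treatment, the 3 smallest p-values for genotype and for its interaction with isoflurane, and genes that fill a role. DESeq2 1.42.0 served as an alternative, and another Leiden seed was added after seeing the data. The fits were tested on simulated data. Runs of mouse numbers (1–4, 10–13, 14–17, 18–20 and 25–29) are groupings by number. The study's methods describe tissue handled in batches of 4 male mice, 1 from each wake and anesthesia group of both genotypes, and no label ties a mouse to a batch. The series text and the sample labels give different group sizes, and the labels were used. The values of 2 of the 50 genes are not reported here, though counts over the gene set include them.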

Additional observations from a re-analysis of the deposited data

Results flagged for a closer look

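In 6 of 60 groups of 4 or 6 mice, 1 mouse lay far from the others of its group. Chance alone marks about 1 in 20 groups where values are normally spread. The groups reuse the same mice, so these 6 are not independent. Mouse 11 of APP/PS1_Isofluran was the highest in 3 of them. It was at 781 CPM for Kcnb2 in DG granule-like nuclei, against 485 to 504 CPM in the other 3 mice, at 1932 CPM for Kcnc2 in inhibitory neuron-like nuclei, against 1176 to 1300.4 CPM, and at 189 CPM for Kcnj3 in astrocyte-like nuclei, against 54.9 to 76.7 CPM. Mouse 4 of the same group was at 4.58 CPM for Kcng1 in CA1-like nuclei, against 1.13 to 1.68 CPM in the others. It was the lowest of its group for Kcnh5 in subicular/cortical excitatory-like nuclei, at 28.5 CPM, against 117 to 134 CPM. Mouse 1 of WT_Wake was at 17.1 CPM for Kcng1 in CA1-like nuclei, against 2.24 to 6.40 CPM.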

How the results depend on the processing

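Of the 19 isoflurane calls, 4 held under every alternative in which they were tested, namely Kcna1 and Kcnh5 in oligodendrocyte-like, Kcnh7 in inhibitory neuron-like and Kcnv2 in CA1-like nuclei (the last not tested without mice 1 to 4, without mice 11, 14, 17 and 20, or under the marker gate, and Kcnh7 not under the gate), 9 held without each mouse in turn, and all 19 kept their sign. Of these 4, Kcnh5 in oligodendrocyte-like and Kcnv2 in CA1-like nuclei passed the filter on low counts through isoflurane mice alone, so that their calls say little of stability. Of the 12 ketamine calls, 0 held under every alternative, 1 (Kcnj3 in astrocyte-like nuclei) without each mouse in turn, and all 12 kept their sign. Some calls described above as lost without single mice were also lost under alternatives not named beside them. The isoflurane count was 13 with no term for mice 1 to 4, 6 without these mice and 32 with no gene filter, and 11 (without mouse 2) to 24 with 1 mouse left out. The ketamine count was 0 with the number runs as a block, where mouse 29 is the only awake mouse of its run, 4 without mice 1 to 4, 22 with no gene filter, and 1 (without mouse 27) to 15 with 1 mouse left out; without mouse 25 it was 5 and without mouse 26 it was 6. With no gene filter 3 pairs were called between genotypes. Under a marker gate per nucleus the genotype values of Kcnc2 turned to -0.0085 in astrocyte-like and -0.035 in subicular/cortical excitatory-like nuclei. The causes were not tested. All counts under alternatives stand without the share of all genes called there, so they are no result about the channels. DESeq2 called 23 and 16 pairs. Another Leiden seed, added after seeing the data, gave 21 and 12 calls, of which 19 and 11 were among those reported. No mouse number is shared between groups, so there are no replicate pairs; with the number runs as a block the isoflurane count was 23, of which 17 were among the 19.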

Other observations

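In clusters left unnamed, Kcnj2, a Kir2 subunit, was at 54.1 ± 50.1 CPM (SD, n = 8, 95 UMIs) in a cluster led by Vim, against 19.9 ± 19.6 CPM (n = 19) in microglia-like nuclei. Kcnd2, the Kv4.2 subunit, was at 2396 ± 358 CPM (n = 20) in a cluster led by Tshz2 and at 132 ± 101 CPM (n = 8) in the cluster led by Vim. These clusters enter no comparison.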
